A study of Mus musculus with 10 samples.

Results

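The genes described here belong to the androgen axis of the prostate, and they were taken by name as a list of 8: Foxa1, Hoxb13, Tmprss2, Fkbp5, Steap4, Srd5a1, Srd5a2 and Zbtb16. Each was found once among the 48897 rows of either expression table. RNA was sequenced in 10 mouse libraries in 4 groups. From male C57BL/6 mice of 3 months, EpCAM+ CD45- prostate cells were sorted, with 3 control libraries (A to C) and 3 of a genotype with Arid1aPC-/- added (labelled Arid1a KO, A to C). In both groups a Cre recombinase under the probasin promoter, which is active in prostate epithelium, had made a further deletion that the controls share, so neither group was wild type, and the second genotype is labelled as deleted for Arid1a by the same means. Myc-CaP, a prostate cancer line from FVB mice with a Myc transgene, provided 2 libraries with an empty vector (EV) and 2 labelled Myc-CaP Arid1a KO, from cells selected for a CRISPR vector against Arid1a. Arid1a is a subunit of the SWI/SNF chromatin remodelling complex. The comparisons asked how the 8 genes differed with the Arid1a label in each system.

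The androgen receptor is a nuclear receptor that binds DNA once testosterone or dihydrotestosterone has bound it. In prostate epithelium it works together with the pioneer factor FOXA1, which opens chromatin at its sites, and with the homeobox factor HOXB13. The enzymes SRD5A1 and SRD5A2 reduce testosterone to the more potent dihydrotestosterone. Tmprss2 (a membrane serine protease), Fkbp5 (a co-chaperone of steroid receptors), Steap4 (a metalloreductase) and Zbtb16 (a zinc finger repressor, also called PLZF) are known to be induced by androgen in prostate cells, and Fkbp5 and Zbtb16 are induced by glucocorticoids too.

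The promoters of the 8 genes were read first, since motifs for the factors above are short and can be shown. RefSeq promoters on GRCm38.p6, from 250 bases before to 50 bases after the start of transcription, were matched by symbol for 6 of the 8 genes. Those of Hoxb13 and Zbtb16 were not among them. Motifs were searched on both strands. For the androgen receptor these were a full response element, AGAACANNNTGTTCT, and its shorter part, AGAACA, which the full element contains. The forkhead motif, for the family of FOXA1, was TGTTTAC. The HOXB13 motif was CCAATAAA. Of the general promoter boxes, the GC box was read as GGGCGG. The CCAAT box, which its name spells, is also contained in the HOXB13 motif. Foxa1 is shown because its window held the forkhead letters, and Steap4, Srd5a1 and Srd5a2 because Steap4 and Srd5a2 were lower and Srd5a1 higher in the epithelium, as given below. In Foxa1 (chr12:57546062-57546361, minus strand) the capitals mark the forkhead letters, which begin 141 bases before the start. In Steap4 (chr5:7960222-7960521, plus strand), Srd5a1 (chr13:69611414-69611713, minus strand) and Srd5a2 (chr17:74047811-74048110, minus strand) the capitals mark GC boxes and CCAAT boxes on either strand, of which Steap4 had 0.
Foxa1: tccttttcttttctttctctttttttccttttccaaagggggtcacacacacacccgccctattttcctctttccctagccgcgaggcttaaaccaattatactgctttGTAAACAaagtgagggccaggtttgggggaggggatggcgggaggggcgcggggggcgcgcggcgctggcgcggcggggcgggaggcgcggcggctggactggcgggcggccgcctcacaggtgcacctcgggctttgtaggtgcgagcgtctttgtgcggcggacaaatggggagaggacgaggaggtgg
Steap4: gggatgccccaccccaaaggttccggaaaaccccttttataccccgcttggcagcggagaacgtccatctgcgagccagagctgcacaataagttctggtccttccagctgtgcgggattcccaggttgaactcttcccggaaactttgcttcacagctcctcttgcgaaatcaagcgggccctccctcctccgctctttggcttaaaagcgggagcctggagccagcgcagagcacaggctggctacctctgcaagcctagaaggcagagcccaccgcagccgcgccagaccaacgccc
Srd5a1: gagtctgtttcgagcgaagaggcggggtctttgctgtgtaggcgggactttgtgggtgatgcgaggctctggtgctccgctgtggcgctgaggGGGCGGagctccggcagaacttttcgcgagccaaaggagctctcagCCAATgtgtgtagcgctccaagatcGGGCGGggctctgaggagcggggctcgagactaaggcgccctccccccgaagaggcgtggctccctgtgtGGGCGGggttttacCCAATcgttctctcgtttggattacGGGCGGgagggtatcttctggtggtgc
Srd5a2: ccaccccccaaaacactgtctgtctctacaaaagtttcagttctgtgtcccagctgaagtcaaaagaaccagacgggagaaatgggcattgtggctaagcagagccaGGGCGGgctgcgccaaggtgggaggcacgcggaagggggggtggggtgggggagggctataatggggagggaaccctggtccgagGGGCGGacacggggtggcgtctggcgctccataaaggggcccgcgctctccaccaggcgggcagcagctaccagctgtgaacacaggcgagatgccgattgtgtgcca

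The forkhead letters occurred in 3.65% of 32851 RefSeq promoters, and Foxa1 was the single gene of the 6 to hold them. The full androgen response element was found in 3 promoters of all, and the letters AGAACA in 19.0%. Neither of these nor the HOXB13 letters, present in 1.12% of promoters, occurred in the 6 windows. The search covered these windows alone, so sites farther from the start were not examined. The window of Fkbp5 (chr17:28486100-28486399, minus strand) lay inside the span of that gene given below. The windows of the 2 reductases differed in the promoter boxes. Srd5a1 held 4 GC boxes and 2 CCAAT boxes, and Srd5a2 held 2 GC boxes and 0 CCAAT boxes. Fkbp5 held the same numbers as Srd5a1, Foxa1 held 3 GC boxes and 1 CCAAT box, and Tmprss2 and Steap4 held 0 of both. In the epithelium Fkbp5 did not pass the test and Foxa1 was lower, as given below. Any link between the boxes and the levels was not tested. Over all promoters, 35.7% had a GC box and 37.4% a CCAAT box. The GC content of the 6 windows ran from 60.3% to 70.7%, against a median of 52.7% over all promoters.

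Values were compared per length, as RPKM in the epithelium and TPM in Myc-CaP. Whole reads could be recovered from these units, and the epithelium libraries rested on 28800759 to 36316939 mapped reads and the Myc-CaP libraries on 18181374 to 20416004 recovered reads. A gene with a mean of at least 0.5 was tested with limma on log2(value + 1), a scale on which the change of a low gene is understated, and called at an adjusted p-value under 0.05. Arid1a was checked first. The control epithelium held 25.4 ± 3.13 RPKM (SD, n = 3), compared with 30.2 ± 1.23 RPKM (SD, n = 3) of Arid1a in the libraries labelled Arid1a KO, a log2 fold change (log2FC) of 0.25 ± 0.09 (SE; limma adjusted p-value 0.0540). The transcript was thus not lower there, and in 6 of 14 alternatives its higher level passed the test. A value over the whole gene cannot show the loss of single exons, so the label was not checked by it where part of the gene was deleted, and the epithelium libraries are named by their label throughout. In Myc-CaP it fell from 60.7 ± 0.36 to 39.9 ± 0.58 TPM (SD, n = 2 each; log2FC -0.59 ± 0.06, limma adjusted p-value 0.0102), a call lost when any 1 library was left out, at adjusted p-values from 0.0984 to 0.111.

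In the epithelium, 6 of the 8 genes passed the test, with 5 lower and 1 higher in the libraries labelled Arid1a KO. Over all 16275 genes tested, 57.1% passed, 29.6% lower and 27.5% higher, so a call in this table is common. The lower genes were Foxa1, Hoxb13, Steap4, Srd5a2 and Zbtb16, and the higher gene was Srd5a1. Tmprss2 and Fkbp5 did not pass. The median log2FC of the 8 genes was -0.51, beside -0.03 over all genes tested. By the study's thresholds of an unadjusted p-value under 0.05 and a 1.5-fold change, 5 of the 8 passed, where 24.8% of all genes did, and Foxa1 was the called gene that dropped out. Fewer cells of a type and less RNA per cell cannot be told apart in these bulk libraries.

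Hoxb13 (chromosome 11, 96194316 to 96197447, plus strand, GRCm38) showed the largest difference of the 8 genes in the epithelium on the log2 scale. It measured 60.3, 71.7 and 63.7 RPKM across control libraries A to C, against 14.9, 14.7 and 24.9 RPKM in those labelled Arid1a KO. The groups did not overlap, as was so for 66.7% of all genes, and library C stood above the other two labelled Arid1a KO. The means were 65.3 ± 5.88 and 18.2 ± 5.86 RPKM (SD, n = 3 each), a 3.59-fold lower level. The log2FC was -1.83 ± 0.19 (SE; limma adjusted p-value 2.10e-04). Between 575 and 3421 reads stood behind each value.

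Foxa1 (chromosome 12, 57540628 to 57546916, minus strand) was lower by a smaller amount. It measured 83.5, 76.3 and 77.1 RPKM in the control libraries and 59.7, 57.9 and 70.0 RPKM in the libraries labelled Arid1a KO, again with library C nearest to the control. The log2FC was -0.34 ± 0.09 (SE), from a mean of 79.0 ± 3.92 to 62.5 ± 6.52 RPKM (SD, n = 3 each; limma adjusted p-value 0.0119). This call depended on the scale of the table. When each library was rescaled to the same sum, the median log2FC of all genes moved from -0.03 to 0.11, that of Foxa1 to -0.16, and its adjusted p-value to 0.167.

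Zbtb16 (chromosome 9, 48654297 to 48836222, minus strand), a repressor that is itself an androgen-induced gene, also fell. Control libraries A, B and C held 4.95, 4.23 and 5.19 RPKM and those labelled Arid1a KO held 2.73, 2.16 and 2.96 RPKM, with no overlap. The mean went from 4.79 ± 0.50 to 2.61 ± 0.41 RPKM (SD, n = 3 each; log2FC -0.68 ± 0.11, limma adjusted p-value 0.00163).

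**Figure D1:**
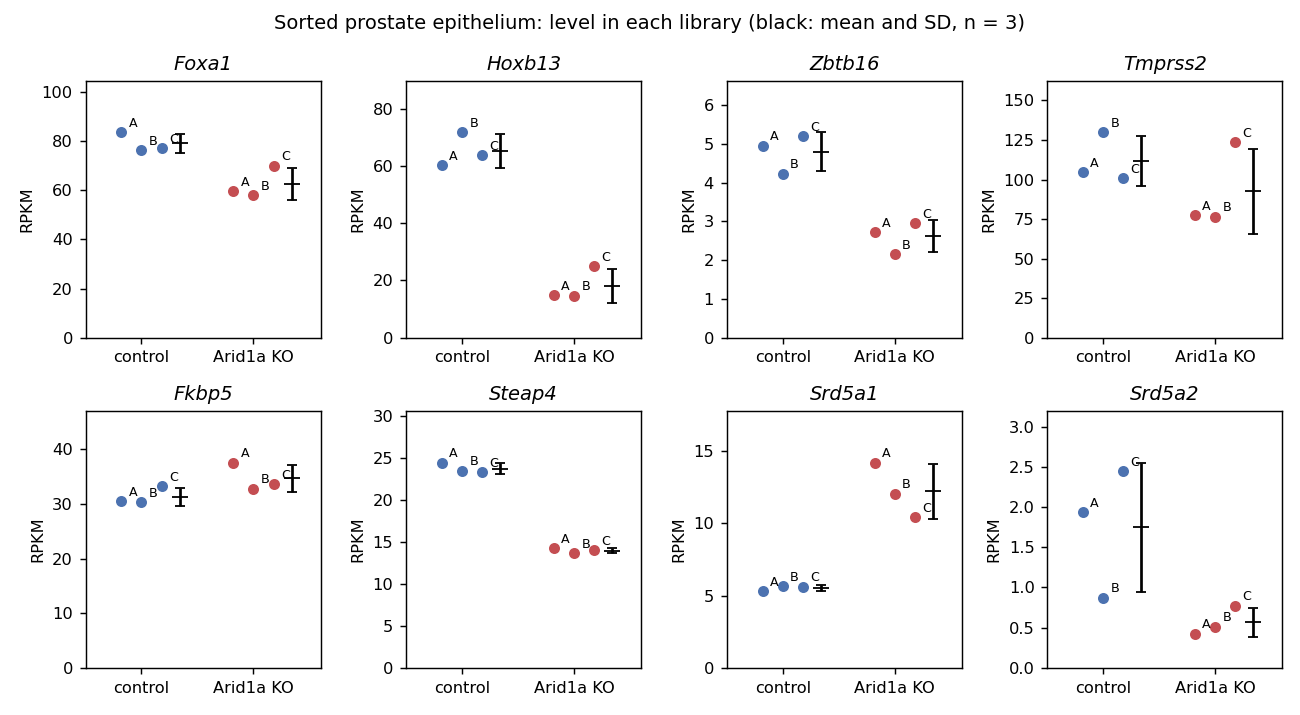
Level in RPKM (vertical axes, from 0) of the 8 genes in each epithelium library, control in blue and labelled Arid1a KO in red, with the library letter beside each point and the mean with its SD (n = 3) in black. Hoxb13 sat at 60.3 to 71.7 RPKM in the control and 14.7 to 24.9 RPKM under the Arid1a KO label, while the ranges of Tmprss2 and of Fkbp5 overlapped between the groups.

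Among the androgen-induced genes, Steap4 (chromosome 5, 7960457 to 7982213, plus strand) had the tightest groups. It measured 24.4, 23.4 and 23.3 RPKM in the control libraries and 14.2, 13.7 and 14.0 RPKM in the libraries labelled Arid1a KO. The mean fell from 23.7 ± 0.63 to 13.96 ± 0.29 RPKM (SD, n = 3 each), a log2FC of -0.72 ± 0.06 (SE; limma adjusted p-value 6.68e-05). Both spreads were small beside the difference.

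Tmprss2 (chromosome 16, 97564682 to 97611195, minus strand) was the most abundant of the 8 in the epithelium. It measured 104.8, 129.8 and 100.8 RPKM in the control libraries and 77.6, 76.6 and 124 RPKM in those labelled Arid1a KO. Library C lay within the control range and the other two below it. The log2FC was -0.30 ± 0.19 (SE; limma adjusted p-value 0.219). Without library C of the Arid1a KO label the log2FC was -0.52 and the adjusted p-value 0.0108, so 1 library decided this call.

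Fkbp5 (chromosome 17, 28399094 to 28517527, minus strand) did not pass either. Control libraries held 30.5, 30.3 and 33.2 RPKM, and those labelled Arid1a KO held 37.5, 32.8 and 33.6 RPKM. The ranges overlapped, library B of the Arid1a KO label lying under control library C, and the log2FC was 0.14 ± 0.07 (SE; limma adjusted p-value 0.138). After rescaling to the same sum it was 0.31, with an adjusted p-value of 0.0123, beside the median of 0.11 over all genes.

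The 2 steroid 5-alpha-reductase genes differed in opposite directions. Srd5a1 (chromosome 13, 69573449 to 69611442, minus strand) measured 5.30, 5.66 and 5.604 RPKM across control libraries A to C, against 14.2, 12.04 and 10.4 RPKM in those labelled Arid1a KO. Every library labelled Arid1a KO was above every control. The mean rose from 5.52 ± 0.19 to 12.2 ± 1.90 RPKM (SD, n = 3 each), with a log2FC of 1.01 ± 0.11 (SE; limma adjusted p-value 2.27e-04). Srd5a1 overlaps Nsun2 on the other strand and Gm17108 on its own strand. Counting was stated to use strand, and Nsun2 measured 18.4 ± 0.52 and 21.9 ± 1.72 RPKM (SD, n = 3 each), a log2FC of 0.24.

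Srd5a2 (chromosome 17, 74016955 to 74047916, minus strand), the form that predominates in normal prostate, was the lowest of the 8 and overlaps CT025731.1 on the same strand. It measured 1.94, 0.871 and 2.44 RPKM in the control libraries and 0.423, 0.511 and 0.772 RPKM in those labelled Arid1a KO. These values stood for 49, 27 and 65 reads against 11, 13 and 19 reads. The groups did not overlap in RPKM, but the exact 95% Poisson interval of the reads in control library B (17.8 to 39.3) overlapped that of library C labelled Arid1a KO (11.4 to 29.7). These intervals cover counting error only. The log2FC was -0.77 ± 0.22 (SE; limma adjusted p-value 0.0189), from a mean of 1.75 ± 0.80 to 0.569 ± 0.18 RPKM (SD, n = 3 each). The call was lost, at adjusted p-values of 0.0592, 0.0538, 0.0600 and 0.0556, without control library A, control library C, or library A or B of the Arid1a KO label, and at 0.0587 with no filter on low values.

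Set against each other within a library, the 2 reductases gave a ratio of Srd5a1 to Srd5a2 of 2.74, 6.50 and 2.30 in the control and 33.5, 23.6 and 13.5 in the libraries labelled Arid1a KO. The ratio was higher in all 3 of the latter, which followed from the values above, since neither gene overlapped between the groups. The difference of the log2 ratio was 2.67. Its exact two-sided permutation p-value was 0.1, the smallest that 3 libraries against 3 can give. That p-value was fixed by the values of the 2 genes and adds nothing to them.

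The order of levels shifted with these differences. In the control epithelium it ran Tmprss2, Foxa1, Hoxb13, Fkbp5, Steap4, Srd5a1, Zbtb16 and Srd5a2, and no neighbours in that order overlapped. Under the Arid1a KO label Fkbp5 passed Hoxb13, and the ranges of Steap4 (13.7 to 14.2 RPKM) and Srd5a1 (10.4 to 14.2 RPKM) overlapped.

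Markers of cell types also differed between the epithelium groups. Of 8 markers listed as luminal, which include the general epithelial gene Epcam, 5 were lower and 0 higher. Krt18 and Dpp4 among them lost their call after rescaling to the same sum. The summed level of the 8 went from 2720 to 3267 RPKM in the control to 2170 to 2354 RPKM, while Krt8 was 859 ± 108 and 875 ± 9.05 RPKM (SD, n = 3 each). Of 8 basal markers 4 were higher and 0 lower (summed 1482 to 2070 against 2599 to 2886 RPKM). The secretory genes of seminal vesicle were lower in 8 of 8, summed 19464 to 21979 RPKM in the control and 647 to 1632 RPKM under the Arid1a KO label. Despite the CD45- gate, Ptprc, which encodes CD45, measured 28.6 ± 2.30 and 57.3 ± 0.98 RPKM (SD, n = 3 each). Called higher were 6 of 7 leukocyte markers (with 1 lower), 9 of 9 macrophage markers (summed 2328 to 2715 against 4168 to 4891 RPKM), 5 of 8 neutrophil, 5 of 8 T cell and 5 of 6 B cell markers. Fibroblast markers were lower in 4 of 8, smooth muscle markers higher in 2 and lower in 5 of 7, and endothelial markers higher in 1 and lower in 1 of 7. None of these markers that were tested was at 0 in every epithelium library. Their part in the differences of the 8 genes was not tested.

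Hoxb13 lies at one end of the Hoxb cluster, whose genes set position along the body axis, and the paralogs of this cluster were examined for the epithelium. Of Hoxb1 to Hoxb9, 8 could be tested, 6 were lower and 2 (Hoxb3 and Hoxb4) did not pass. Hoxb9, with its start 77.1 kb from that of Hoxb13, went from 11.2 ± 0.99 to 2.92 ± 0.44 RPKM, a log2FC of -1.64, and Hoxb8 from 5.51 ± 0.98 to 1.12 ± 0.18 RPKM, a log2FC of -1.61 (SD, n = 3 each; limma adjusted p-values 3.23e-05 and 7.46e-05). Hoxb5 and Hoxb7 lost their calls after rescaling to the same sum and when single libraries were left out. The other 2 tested genes of the HOX13 group were lower as well, Hoxd13 by a log2FC of -1.35 and Hoxa13 by -0.89. A window of 300 kb on either side of Hoxb13 was chosen after the values were seen. Within it, 9 of 13 tested protein-coding neighbours were lower and 0 higher, where 29.6% of all genes were lower. These 13 include the 8 tested Hoxb genes already counted above, 6 of them lower. Outside the cluster B4galnt2, Snf8 and Atp5g1 were lower, and Ube2z and Skap1 did not pass. B4galnt2, 279 kb away on the side outside the cluster, fell from 37.7 ± 0.82 to 17.8 ± 7.02 RPKM (log2FC -1.10, limma adjusted p-value 0.0039), whereas Ube2z, 129 kb away, did not pass at -0.08.

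**Figure D2:**
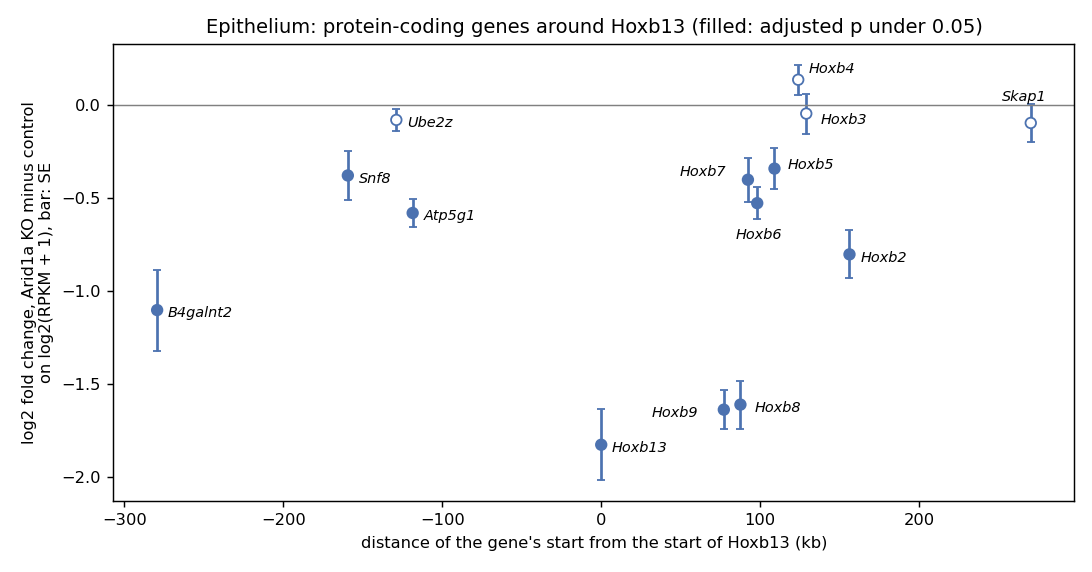
Log2FC on log2(RPKM + 1) in the epithelium, Arid1a KO label minus control (vertical axis, bars give the SE), of the tested protein-coding genes around Hoxb13, placed by the distance of their starts from that of Hoxb13 in kb (horizontal axis). Filled points passed an adjusted p-value of 0.05. Hoxb13, Hoxb9 and Hoxb8 lay at -1.83, -1.64 and -1.61, and Hoxb3 and Hoxb4 near 0.

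Other lineage factors of prostate epithelium were lower more often than higher. Of 13 tested, 7 were lower and 2 higher, where 29.6% and 27.5% of all genes were, with a median log2FC of -0.49 beside -0.03 over all genes. The 7 include Hoxa13 and Hoxd13, already counted above. Spdef, an ETS factor of secretory cells, fell from 14.2 ± 0.92 to 3.08 ± 0.64 RPKM (SD, n = 3 each; log2FC -1.91), and Gata2, which binds with the androgen receptor at many sites, from 39.4 ± 1.93 to 13.1 ± 4.86 RPKM (SD, n = 3 each; log2FC -1.57). Grhl3 and Runx1 rose, with log2FC values of 1.49 and 0.87. Of the 9 calls, 8 held in every alternative, and Ehf lost its call after rescaling.

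The coregulators that androgen-bound receptor recruits, and the chaperones that hold it, gave 9 calls among 17 genes tested, 8 higher and 1 lower, with a median log2FC of 0.03. The share called, 52.9%, was below the 57.1% of all genes, and 7 of the 9 calls held in every alternative. The acetyltransferase gene Ep300 and the coactivator gene Ncoa3 rose by log2FC values of 0.68 and 0.66. Fkbp4, which encodes FKBP52, a chaperone partner of steroid receptors, was the single gene of this list to fall, from 102 ± 9.30 to 68.4 ± 4.80 RPKM (SD, n = 3 each; log2FC -0.57, limma adjusted p-value 0.0012). Of the other steroid receptors, Nr3c1 (the glucocorticoid receptor) was higher at 6.39 ± 0.86 and 9.15 ± 0.57 RPKM, and Nr3c2 (the mineralocorticoid receptor) and Esr1 (an estrogen receptor) were lower, among 3 tested. Esr1 did not keep its call under rescaling, nor without control library C or library B of the Arid1a KO label.

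Enzymes of steroid metabolism other than the 2 reductases were split, with 4 of 13 higher and 4 lower, and a median log2FC of -0.04. The share called was 61.5%, near the 57.1% of all genes, and 7 of the 8 calls held in every alternative. Hsd11b2, which inactivates glucocorticoids, fell from 70.4 ± 2.24 to 10.1 ± 4.85 RPKM (SD, n = 3 each; log2FC -2.77, limma adjusted p-value 1.22e-04). Dhrs9, a retinol and steroid dehydrogenase, rose by a log2FC of 1.197, and Hsd17b7 by 0.62. Hsd17b10 and Hsd11b1 were lower by log2FC values of -0.76 and -0.75.

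Genes known to be induced by androgen did not move one way. Of 29 tested, 14 were higher and 5 lower, with a median log2FC of 0.17 beside -0.03 over all genes. The share called was 65.5%, where 57.1% of all genes were called (27.5% higher and 29.6% lower), and 14 of the 19 calls held in every alternative. Pbsn, which encodes probasin and whose promoter drives the Cre of these mice, had the largest difference of the list. It measured 159.8, 203 and 198 RPKM in the control libraries and 3.07, 4.29 and 8.66 RPKM in those labelled Arid1a KO, a log2FC of -4.98 ± 0.29 (SE; limma adjusted p-value 2.11e-05). Hpgd, Homer2 and Slc45a3 were lower by log2FC values between -0.88 and -0.69. Aldh1a3, Ell2 and Pmepa1 were higher by 0.91, 0.74 and 0.71. Of 10 genes that glucocorticoids induce as well, 3 were higher and 3 lower, a share close to that of all genes, Per1 by 0.70 and Cebpd by -1.26 on the log2 scale, and 3 of the 6 calls held in every alternative, those of Per1, Cebpd and Pdk4.

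In Myc-CaP, 6 of the 8 genes could be tested and 1 passed, where 6.43% of 13974 genes did (4.54% higher and 1.89% lower). That gene was Steap4, which was higher after knockout. The same gene passed the study's thresholds, again applied to the limma values, which 6.28% of all genes passed. Values of 4 of the 6 did not overlap between the groups, and with 2 libraries a group this held for 51.5% of all genes. With 2 libraries a group the test leans on the spread shared across genes. Nothing in the labels shows that the 2 came from separate cultures, and the p-values then measure the spread between these libraries, which may be technical.

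The Myc-CaP libraries were also low in some defining epithelial markers. Epcam, Krt18 and Krt5 were listed at 0 in both EV libraries, and Krt8 went from 0.932 ± 0.20 TPM with EV to 39.6 ± 1.02 TPM after knockout (SD, n = 2 each), while Cldn3, another luminal marker, stood at 711 TPM with EV and 838 TPM after knockout. Of 3 luminal markers tested, 1 was called higher (Krt8) and 1 lower (Cd24a). Of 5 basal markers tested, 1 was higher (Krt15) and 0 lower. The calls of Cd24a and Krt15 were lost whichever library was left out. Markers of leukocytes summed to at most 5.59 TPM in any library.

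Steap4 measured 2.43 and 3.10 TPM in EV libraries 1 and 2 and 7.40 and 6.32 TPM in the knockout libraries, from 67 and 75 reads against 192 and 151. The groups did not overlap. The mean went from 2.76 ± 0.47 to 6.86 ± 0.76 TPM (SD, n = 2 each), with a log2FC of 1.06 ± 0.15 (SE; limma adjusted p-value 0.0273). The call was lost when any 1 library was left out, at adjusted p-values of 0.154, 0.113, 0.177 and 0.136 without EV library 1, EV library 2, knockout library 1 and knockout library 2. It was also lost without a trend in the variance (0.0503) and with no filter on low values (0.106).

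The cofactors did not pass in Myc-CaP. Foxa1 measured 60.4 and 58.0 TPM with EV and 58.3 and 60.5 TPM after knockout, and the groups overlapped. The log2FC was 0.01 ± 0.06 (SE; limma adjusted p-value 0.972), and its sign changed to negative under quantile normalization and without EV library 2 or knockout library 2. Hoxb13 measured 51.9 and 41.8 TPM with EV and 69.4 and 55.7 TPM after knockout. Both knockout libraries were above both EV libraries, but the log2FC of 0.41 ± 0.15 (SE) had a limma adjusted p-value of 0.207. Zbtb16 measured 23.4, 23.0, 22.5 and 23.2 TPM in EV 1, EV 2, knockout 1 and knockout 2, a log2FC of -0.02 ± 0.07 (SE; limma adjusted p-value 0.893).

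Fkbp5 was by far the most abundant of the 8 in Myc-CaP. It measured 489 and 501 TPM with EV and 526 and 542 TPM after knockout, from at least 15007 reads a library, and ranked above 97.9% of all genes tested in the EV libraries. The knockout values were the higher in both libraries, but the log2FC of 0.11 ± 0.05 (SE) did not pass (limma adjusted p-value 0.307). Tmprss2, which led the order in the epithelium, was close to 0 here, with 1 and 6 reads in the EV libraries and 6 and 0 reads after knockout. The exact 95% Poisson interval of a count of 0 reaches 3.69 reads. Tmprss2 lay under the filter and was not tested.

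Of the reductases, Srd5a1 measured 10.1 and 13.6 TPM with EV and 9.75 and 9.72 TPM after knockout. The groups did not overlap, yet EV library 1 lay close to the knockout libraries, and the log2FC of -0.25 ± 0.15 (SE) did not pass (limma adjusted p-value 0.421). Srd5a2 had 0 reads in all 4 libraries, where 3 reads in a library would have stood for 0.4005 to 0.462 TPM. The order of levels with EV was Fkbp5, Foxa1, Hoxb13, Zbtb16, Srd5a1, Steap4, Tmprss2 and Srd5a2, and the first 6 did not overlap their neighbours, while Tmprss2 and Srd5a2 were too close to 0 to be ordered. After knockout Hoxb13 and Foxa1 overlapped.

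**Figure D3:**
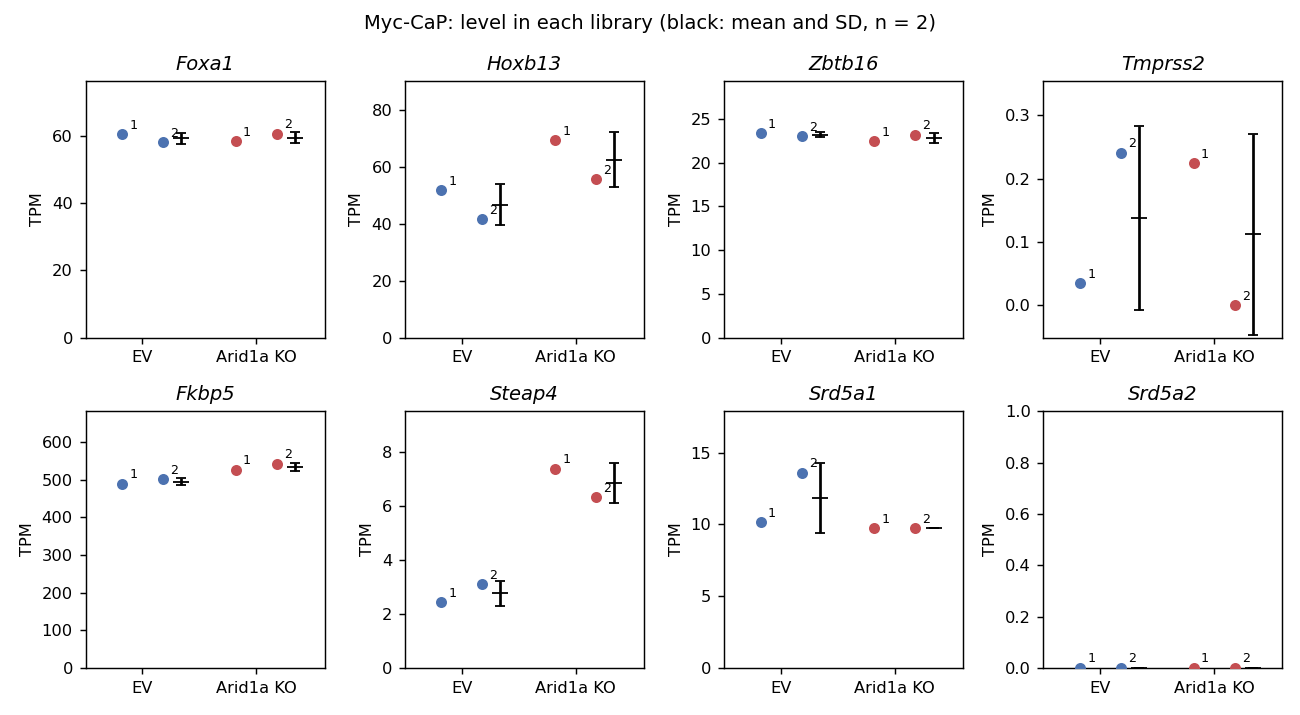
Level in TPM (vertical axes) of the 8 genes in each Myc-CaP library, EV in blue and Arid1a KO in red, with the library number beside each point and the mean with its SD (n = 2) in black. Steap4 lay at 2.43 and 3.10 TPM with EV and at 7.40 and 6.32 TPM after knockout, and all 4 Srd5a2 points are at 0.

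**Figure D4:**
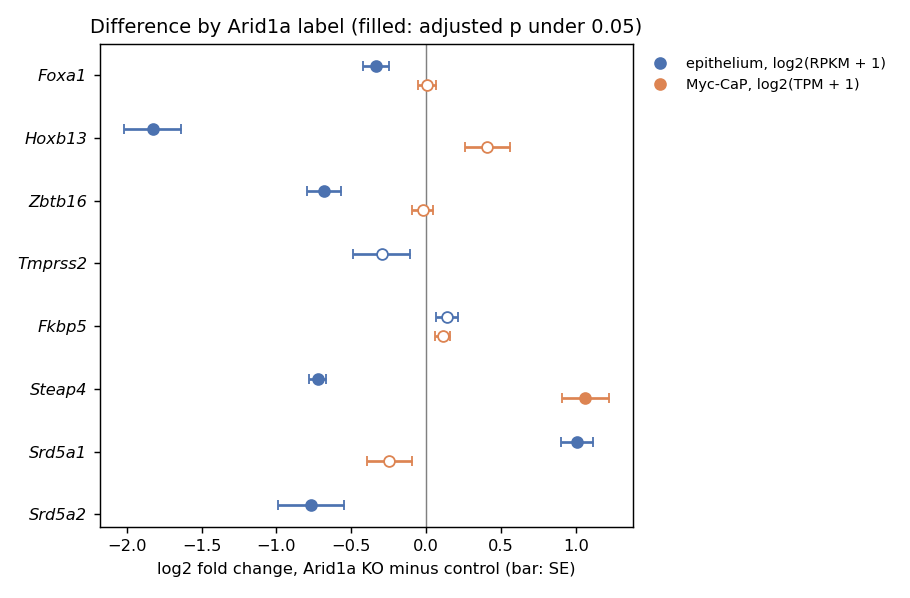
Log2FC, Arid1a KO minus control (horizontal axis, bars give the SE), of each tested gene in the epithelium on log2(RPKM + 1), in blue, and in Myc-CaP on log2(TPM + 1), in orange, with filled points for an adjusted p-value under 0.05. Steap4 lay at -0.72 in the epithelium and 1.06 in Myc-CaP, and Tmprss2 and Srd5a2 have no Myc-CaP point since they were under the filter.

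The pathway lists around these genes differed in their share of calls in Myc-CaP, where 6.43% of all genes were called. None of the 17 coregulators was called by limma, where 6 had an unadjusted p-value under 0.05 and limma-voom on recovered reads called 3, and their median log2FC was -0.04. Of 8 lineage factors tested Gata3 and Grhl1 were higher, by log2FC values of 0.47 and 0.58. Among steroid enzymes 2 of 11 were higher, Hsd17b11 from 78.3 ± 0.043 to 193 ± 3.73 TPM (SD, n = 2 each; log2FC 1.29, limma adjusted p-value 0.00167) and Hsd17b10 by 0.50. Of 22 androgen-induced genes 5 were lower and 1 higher, a share called of 27.3%, where 1.89% of all genes were lower and 4.54% higher. Among the lower genes, Sord and Slc45a3 had log2FC values of -0.80 and -0.77. Esr1, the single steroid receptor tested, was higher, at 1.04 ± 0.033 and 2.92 ± 0.13 TPM (SD, n = 2 each).

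Of the pathway lists with more than 1 gene tested in Myc-CaP, the genes that glucocorticoids induce as well as androgen had the highest share of calls. Of 10 tested, 6 were higher and 0 lower, where 4.54% of all genes were higher, and the median log2FC was 0.41 beside -0.01 over all genes. Pdk4, which restrains pyruvate dehydrogenase, went from 4.67 ± 0.35 to 14.9 ± 2.35 TPM (SD, n = 2 each; log2FC 1.48), and Errfi1 and Ddit4 rose by log2FC values of 0.78 and 0.74. Nr3c1, which encodes the glucocorticoid receptor, stood at 0.0139 TPM with EV and 0.0234 TPM after knockout and was under the filter. All 6 calls were lost whichever library was left out, and of the 19 pathway genes called in Myc-CaP, counted over the lists, 2 kept theirs in every alternative, Hsd17b11 among them.

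**Figure D5:**
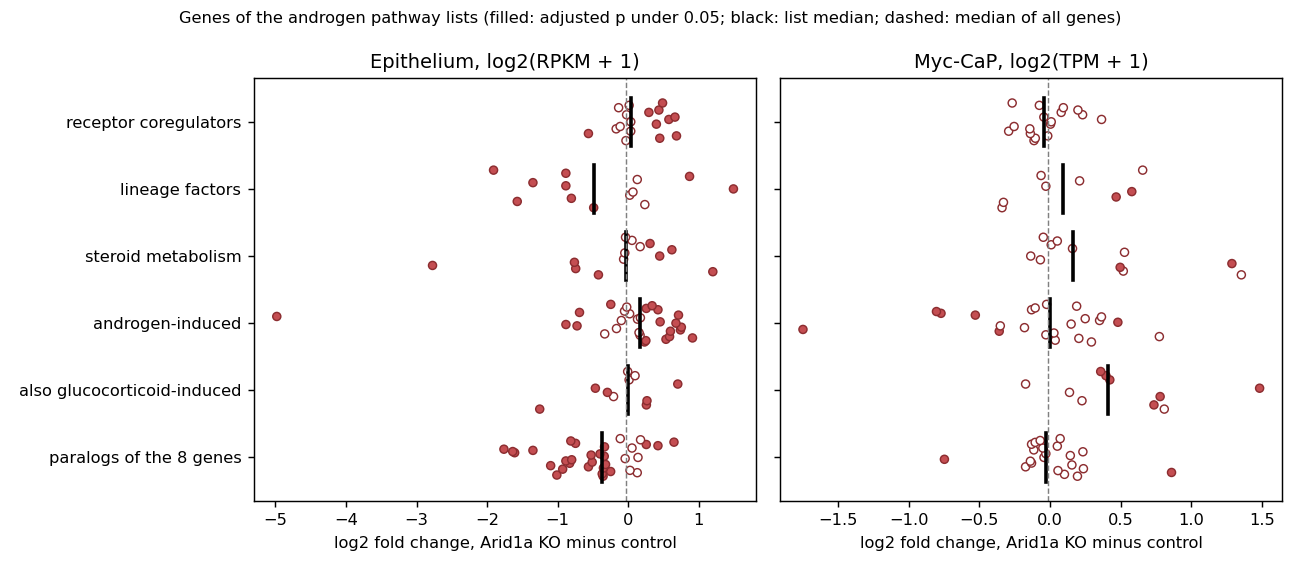
Log2FC, Arid1a KO minus control (horizontal axes), of each tested gene in 6 lists of androgen pathway genes, in the epithelium on log2(RPKM + 1) and in Myc-CaP on log2(TPM + 1), with filled points for an adjusted p-value under 0.05. Black bars give the list medians, from -0.49 (lineage factors) to 0.17 (androgen-induced) in the epithelium, and dashed lines the median of all genes.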

How the data were processed

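RNA was measured in 6 libraries of epithelial cells sorted from prostate and in 4 of the Myc-CaP line. Paired-end reads were aligned to GRCm38 (mm10) with TopHat2 by the study's methods, HISAT2 by the submitters' processing notes, and counted per gene with HTSeq-count using strand. The authors deposited RPKM (reads scaled by gene length and mapped reads) for the epithelium and deposited TPM (scaled by length, then to the same sum) for Myc-CaP, so no count model was the main test. The growth text of the labels describes culture for all 10 samples, and the study also describes tumours grown from Myc-CaP cells, so the origin of the Myc-CaP RNA is read from the labels.

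Groups came from the genotype labels. The tables were fitted separately in R 4.3.3 with limma 3.58.1, using lmFit and eBayes with the variance trend, on log2(value + 1), over genes with a mean of at least 0.5, with 2 groups and no covariate. P-values were two-sided and adjusted by Benjamini-Hochberg over all genes of a table. The fit was tested on simulated data. Whole reads were recovered from the steps between values, to within 0.01, for 100% of tested epithelium genes and 94.2% of tested Myc-CaP genes. Coordinates came from GENCODE M21.

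The 8 genes, the pathway lists and the marker lists were chosen with earlier results of these data known. Besides the 8 genes, the text names from each list at most 4 called genes in each direction with at least a 1.5-fold change, those changing most. Other genes named (markers, neighbours of Hoxb13, Nsun2, Hoxb2 to Hoxb7, Nr3c1, Nr3c2 and smaller list changes) were chosen after their values were seen. Motifs were written by hand. Alternatives were a pseudocount of 0.1, no filter or a mean of at least 5, no trend, rescaling to the same sum, quantile normalization, a replicate block and leaving out each library, with limma-voom on recovered reads added after seeing the data. Some genes of the pathway are not reported here. The labels give no batch.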

Additional observations from a re-analysis of the deposited data

Results flagged for a closer look

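Hoxb13, Steap4 and Srd5a1 differed in opposite directions with the Arid1a label in the 2 systems, with every library labelled Arid1a KO on one side of every control library in each. Groups without overlap were common, at 66.7% of all genes in the epithelium and 51.5% in Myc-CaP. Hoxb13 had a log2 fold change of -1.83 in the epithelium and 0.41 in Myc-CaP. Steap4 had -0.72 and 1.06, and Srd5a1 had 1.01 and -0.25. Of these, the Myc-CaP values of Hoxb13 and Srd5a1 did not pass the test. The difference between the systems was not tested, because the tables were normalized separately.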

How the results depend on the processing

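In the epithelium, Hoxb13, Steap4, Srd5a1 and Zbtb16 kept their direction and call in every alternative in which they were tested. Foxa1, Fkbp5, Tmprss2 and Srd5a2 each changed their call in at least 1, as given beside their values. A mean of at least 5 gave 5872 called genes of 9027 in place of 9294, since fewer genes were tested. Rescaling to the same sum turned the split of calls from 4471 higher and 4823 lower to 6046 and 3277.

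In Myc-CaP the count of 899 called genes became 358 with no filter, 451 without a trend, 1520 with limma-voom and 47 to 76 when 1 library was left out. None of the 8 genes was called with no filter, without a trend, with a mean of at least 5 (where Steap4 was under the filter) or when 1 library was left out (0 in each of these runs). The cause of these changes was not tested beyond the loss of a library. The log2 fold change of Foxa1 was -0.0091 under quantile normalization and ran from -0.024 to 0.035 when 1 library was left out, and that of Zbtb16 from -0.046 to 0.00029.

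With the library number as a replicate block, Myc-CaP gave 2771 called genes, and 3 of the 8 genes, Hoxb13 (adjusted p-value 0.0045) and Fkbp5 (0.0299) beside Steap4 (0.0137). Deviations of same-numbered Myc-CaP libraries correlated at 0.19 and those of unlike numbers at -0.19. With 2 libraries a group these are mirror images, so the value cannot decide whether the numbers pair the libraries. The labels give no batch, and the main fit used no pairing. In the epithelium, libraries of the same letter correlated at 0.041, 0.0094 and -0.057, and the replicate block gave 8823 called genes and the same count of 6 of the 8 genes.

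Srd5a2 rested on 11 to 65 reads a library in the epithelium, where counting intervals of the groups overlapped.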

Other observations

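Fkbp5 belongs to the FKBP family of prolyl isomerases. Of 13 tested relatives, 11 were lower and 0 higher in the epithelium under the Arid1a KO label, where 29.6% of all genes were lower, with a median log2 fold change of -0.37, and 5 of the 11 (Fkbp1a, Fkbp3, Fkbp8, Fkbp10 and Fkbp14) lost their call after rescaling to the same sum. The 11 include Fkbp4, already counted among the coregulators. Fkbp7 had the lowest value, from 12.8 ± 1.93 to 5.43 ± 0.70 RPKM (SD, n = 3 each; log2 fold change -1.10, limma adjusted p-value 2.71e-04). It was lower in Myc-CaP too, by a log2 fold change of -0.75, and Fkbp14 was higher there by 0.86, both calls being lost whichever library was left out. In the STEAP family, Steap3 was lower in the epithelium like Steap4, with a log2 fold change of -0.75, while Steap1 and Steap2 were higher. The call of Steap1 was lost without library A of the Arid1a KO label, and that of Steap2 held in 6 of 13 alternatives. Among the relatives of Tmprss2, Hpn, which encodes the serine protease hepsin, fell from 25.1 ± 0.91 to 6.69 ± 0.63 RPKM (SD, n = 3 each; log2 fold change -1.76), and Tmprss11e rose by 0.65.

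The genes whose pattern was most like that of a gene described here were ranked by Pearson's r of log2(value + 1), over 10 libraries centred on the mean of their table, or over the 6 epithelium libraries for Tmprss2 and Srd5a2. These values are a description, and the points share their library, its depth and its group. Pmm2 (r = 0.998) and Smim1 (0.995) were nearest to Hoxb13, Inadl (0.986) and F2rl1 (0.983) to Foxa1, and Sorbs3 (0.990) and Morf4l1 (0.988) to Zbtb16. Mxd4 (0.983) and Mgp (0.978) were nearest to Steap4, Usp19 (0.987) and Tgif1 (0.986) to Srd5a1, and Dcakd (0.990) and Zbtb10 (0.988) to Srd5a2. For Tmprss2 they were Iglc1 (0.989), an immunoglobulin light chain gene, and Cds1 (0.978). The nearest to Fkbp5, Nnt (0.930) and the chaperone gene Hspa8 (0.920), were less alike than those of the other 7 genes.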
